A study of Mus musculus with 23 samples.

Results

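Mural cells are the pericytes of capillaries and the smooth muscle cells of arteries and arterioles, and 9 genes that mark them were followed across hippocampal RNA-seq libraries of WT and P301S tau mice kept in normoxia or in hypoxia. The genes are a list of symbols matched to Ensembl gene identifiers; the matching used no measured value, but the list was drawn up with earlier results of these data known: Pdgfrb, Rgs5, Abcc9, Vtn, Notch3 and Cspg4 for pericytes, and Acta2, Myh11 and Tagln for contractile smooth muscle. All 9 were found among the 52636 genes counted. After genes with low counts were removed, 8 of the 9 remained among the 17788 genes tested, and Tagln was lost.

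Pericytes lie inside the basement membrane of capillaries, in contact with endothelial cells, and take part in the upkeep of the blood-brain barrier. Endothelial cells recruit them with the ligand PDGF-B, which acts on the receptor encoded by Pdgfrb, and Notch signalling through Notch3 keeps arterial smooth muscle cells differentiated. Arterial smooth muscle sets vessel diameter with a contractile apparatus of smooth muscle actin and myosin, whose genes are driven by serum response factor together with myocardin.

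The 4 groups were WT in normoxia (6 libraries), WT in hypoxia (6), P301S in normoxia (5) and P301S in hypoxia (6). All animals were on a mixed C57Bl6 and Balbc background, and P301S denotes mice carrying tau with the P301S mutation; hypoxia here was chronic and intermittent, as the title of the series says. RNA came from the flash-frozen whole hippocampus, so every value is an average over all cell types there, and fewer cells of a type and less RNA per cell cannot be told apart. The sources used here give neither the promoter of the transgene, nor the age and sex of the mice, nor the oxygen regimen. Whether 1 mouse gave 1 library is not stated in the labels, and p-values may therefore reflect technical spread among libraries only. The titles of the WT libraries carry a further number that never occurs in both conditions, and whatever it stands for cannot be told apart from hypoxia in WT.

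Total counts per library ranged from 19.1 M to 25.8 M (M for mega), and 2.14% to 2.99% of them were mitochondrial. Neuronal markers reached a summed level of 8470 to 11100 CPM (a gene's counts over the library's total in M, scaled with TMM factors) in each library, and microglial markers 227 to 380 CPM. Choroid plexus markers, which belong to tissue beside the hippocampus, ran from 262 to 5510 CPM, and 6 libraries stood apart at the low end: WT normoxia replicate 4, WT hypoxia replicates 1, 4 and 5, and P301S hypoxia replicates 1 and 4. Markers of meningeal and perivascular fibroblasts summed to 284 to 793 CPM. Other mural markers were present: 14 of 15 further pericyte genes and 13 of 15 further smooth muscle genes passed the filter.

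Levels can be compared between genes only per length, because the counts cover the whole gene body with its introns. Per kb of gene body, Vtn was highest at 13.8 ± 3.09 CPM per kb (mean ± SD, n = 23), followed by Rgs5 at 1.76 ± 0.403, Cspg4 at 0.883 ± 0.133 and Pdgfrb at 0.746 ± 0.0790. Acta2 stood at 0.509 ± 0.173 CPM per kb of gene body, Notch3 at 0.203 ± 0.0354, Myh11 at 0.0926 ± 0.0250, Abcc9 at 0.0661 ± 0.00937 and Tagln at 0.0443 ± 0.0133. Vtn encodes vitronectin, a secreted adhesion protein, and Rgs5 a regulator that shortens signalling of G protein-coupled receptors; both are abundant transcripts of brain pericytes.

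Gene bodies range from 3.23 kb for Vtn to 114 kb for Abcc9, and dividing by summed exon length changed the middle of the order. On that scale the levels were 22 ± 4.92 CPM per kb for Vtn, 15.6 ± 3.58 for Rgs5, 5.44 ± 0.575 for Pdgfrb, 3.30 ± 1.12 for Acta2 and 2.58 ± 0.387 for Cspg4. Myh11 followed at 1.18 ± 0.319 CPM per kb of exon, Notch3 at 1.16 ± 0.202, Abcc9 at 0.904 ± 0.128 and Tagln at 0.144 ± 0.0431. Neighbours in the order were not all distinct: Vtn lay above Rgs5 in 21 of 23 libraries, Acta2 above Cspg4 in 15 of 23, and Myh11 above Notch3 in 10 of 23. Rgs5 lay above Pdgfrb, and Cspg4 above Myh11, in 23 of 23 libraries.

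**Figure D1:**
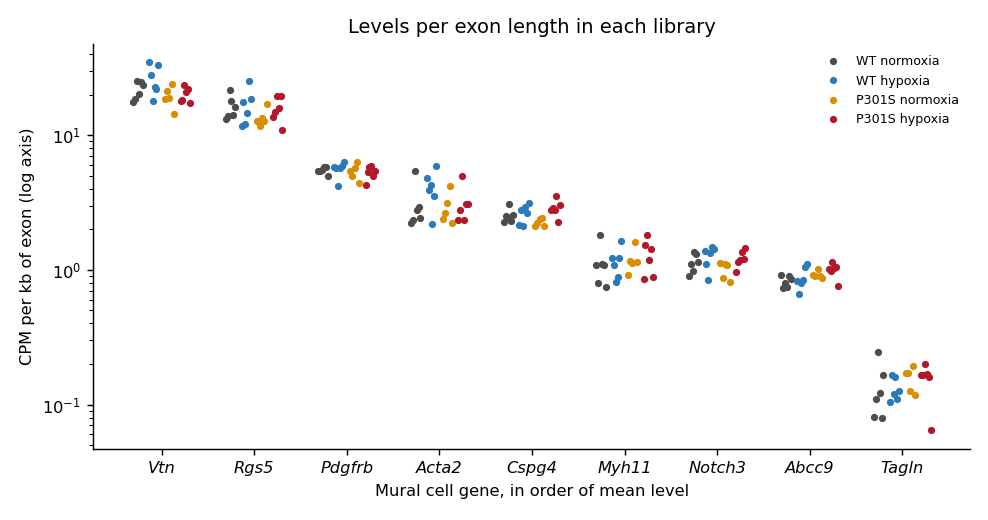
Level of each mural cell gene per kb of summed exon length (CPM per kb, log axis) in each of 23 libraries, ordered by mean level and coloured by group. Vtn (22) and Rgs5 (15.6) are highest, Tagln (0.144), whose counts are not a measure of its expression, stands last, and the 4 groups overlap for every gene.

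The counts of 3 of the genes are less certain than the others because another gene covers part of them on the same or the opposite strand, and the counting was unstranded. Tagln (ENSMUSG00000032085, chromosome 9, 45929619 to 45936058 in GRCm38), which encodes the actin-binding protein transgelin, has 67.9% of its exon bases under Pcsk7 and Gm48529. Only 3 to 12 counts per library were assigned to it, while Pcsk7 received 1045 to 1423, so its place at the end of both orders says nothing of its expression. Notch3 (ENSMUSG00000038146, chromosome 17, 32120820 to 32166880) has 44.8% of its exon bases under Gm17276, which received 113 to 278 counts. The levels of Notch3 per kb were divided by its full length, so its place in both orders is uncertain. Abcc9 (ENSMUSG00000030249, chromosome 6, 142587862 to 142702315) has 3.0% of its exon bases under 5330439B14Rik, which received none. The other 6 genes have no such overlap.

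None of the 8 tested genes differed between conditions or genotypes at an adjusted p below 0.05 (edgeR quasi-likelihood test, Benjamini-Hochberg over all genes tested). In hypoxia against normoxia, 0 of 8 passed in WT, where 0.0731% of all genes did, and 0 of 8 in P301S, where 0.41% did. Between genotypes, 0 of 8 passed among normoxia libraries, where 6.35% of all genes did, and 0 of 8 among hypoxia libraries, where 1.87% did. The test of whether the hypoxia difference itself differed between genotypes gave 0 of 8 against 0.0394% of all genes, and hypoxia averaged over genotypes gave 0 of 8 against 1.33%. At an unadjusted p below 0.05 the numbers of the 8 genes were 0, 1, 0, 1, 0 and 2 in the same 6 comparisons, and the shares of all genes were 11.6%, 13.8%, 22.8%, 18.2%, 9.43% and 16%. At these shares of calls among all genes, 0 of 8 is near the background in each comparison.

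The fitted differences of the 8 genes were small. Their median log2 fold change for hypoxia was 0.07 in WT and 0.12 in P301S, beside medians over all genes of 0.004 and -0.003. Averaged over genotypes the median of the 8 was 0.15, and all 8 values were at or above 0, from 0.00 for Pdgfrb to 0.26 for Acta2. For P301S against WT the medians were -0.10 in normoxia and -0.06 in hypoxia. The 4 pairwise comparisons share groups, so these medians are not separate observations. In no gene and no pairwise comparison were the groups free of overlap, while 0.691% of all genes showed no overlap for hypoxia in WT, 2.13% for hypoxia in P301S, 3.34% between genotypes in normoxia and 1.93% in hypoxia.

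**Figure D2:**
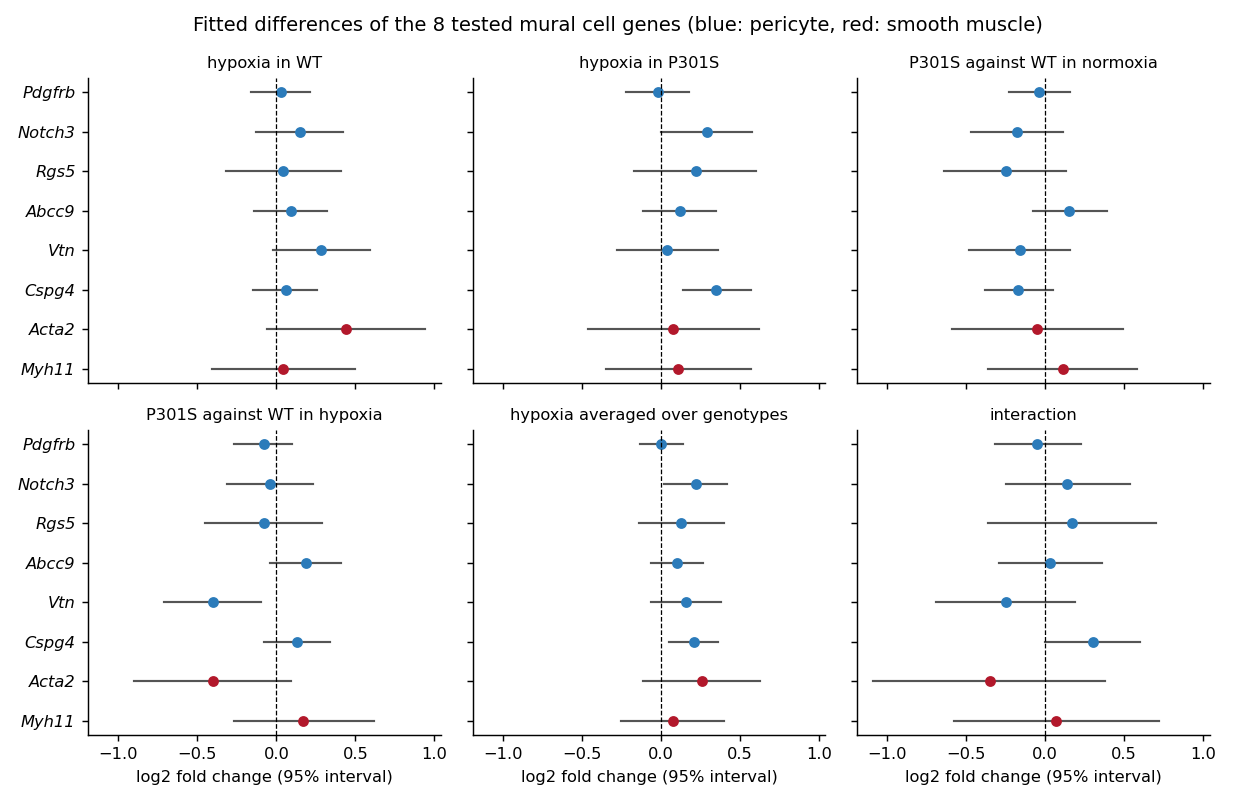
Fitted log2 fold change (x axis) of each of the 8 tested genes in 6 comparisons, with its 95% interval as a line; interaction is the hypoxia difference in P301S minus that in WT. No gene passed an adjusted p of 0.05. The interval of Cspg4 for hypoxia in P301S runs from 0.14 to 0.57 and that of Vtn for P301S against WT in hypoxia from -0.71 to -0.10.

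Among the receptors of pericytes, Pdgfrb (ENSMUSG00000024620), the PDGF receptor beta that pericytes need to attach to vessels, was the least variable. It measured 27.0 CPM at the lowest, 30.1 at the median and 31.9 at the highest in WT normoxia, and 23.1, 31.5 and 34.4 in WT hypoxia. In P301S normoxia its 5 libraries had 29.6, 27.3, 31.4, 34.3 and 24.1 CPM, and P301S hypoxia ran from 23.3 through a median of 29.6 to 32.3. All 4 groups overlapped, and the low ends of WT hypoxia, P301S normoxia and P301S hypoxia lay below every WT normoxia library. Its log2 fold change for hypoxia averaged over genotypes was 0.00 (95% interval -0.13 to 0.14, adjusted p = 0.994, edgeR) and its fold interval 0.911 to 1.1.

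The other members of PDGF signalling in the list were the ligands Pdgfa, Pdgfb, Pdgfc and Pdgfd and the receptor Pdgfra, and 0 of 5 passed in any of the 6 comparisons. Pdgfb, the endothelial ligand of this receptor, had a log2 fold change of -0.04 ± 0.0709 (SE) for hypoxia averaged over genotypes. Pdgfra, the alpha receptor of oligodendrocyte precursors and fibroblasts, had 0.15 ± 0.0456 (adjusted p = 0.0993, edgeR), and Pdgfc had 0.13 ± 0.0626. Pdgfa, a ligand of the alpha receptor, had -0.07 ± 0.0415.

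Notch3, the Notch receptor of mural cells, measured 7.26 CPM at the lowest, 9.11 at the median and 10.9 at the highest in WT normoxia, and 6.84, 10.9 and 12.0 in WT hypoxia. In P301S normoxia the libraries had 9.04, 7.04, 8.99, 8.74 and 6.54 CPM, and P301S hypoxia ran from 7.75 through 9.73 to 11.7. In P301S, 5 of 6 hypoxia libraries lay above all 5 normoxia libraries and the remaining library lay among them. The share of all genes with such a pattern was not counted. The log2 fold change was 0.29 ± 0.140 (SE) for hypoxia in P301S (adjusted p = 0.365, edgeR) and 0.22 ± 0.0959 averaged over genotypes (adjusted p = 0.268), neither of which passed.

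Of 13 further Notch ligands, receptors and targets, 12 were tested and 0 passed in each comparison; 5 of 12 had an unadjusted p below 0.05 for hypoxia averaged over genotypes, beside 16% of all genes. Dll1, a ligand, had a log2 fold change of -0.26 ± 0.0729 (SE; adjusted p = 0.0697, edgeR), and Hey1, a target gene encoding a repressor, 0.13 ± 0.0371 (adjusted p = 0.0712). Rbpj, the DNA-binding factor of the pathway, had 0.39 ± 0.118 averaged over genotypes, with 0.09 ± 0.164 in WT and 0.70 ± 0.171 in P301S (adjusted p = 0.0742 in P301S). The signs of the pathway's members were mixed, with 6 of 12 above 0 for the average.

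Cspg4 (ENSMUSG00000032911, chromosome 9, 56865033 to 56899870), which encodes the NG2 proteoglycan, had the lowest p of the 8 genes for hypoxia in P301S and averaged over genotypes, though not in WT. It measured 27.1 CPM at the lowest, 29.4 at the median and 36.6 at the highest in WT normoxia, and 25, 32.2 and 37.5 in WT hypoxia. In P301S normoxia the libraries had 25.1, 26.5, 28.3, 28.9 and 25.1 CPM, and in P301S hypoxia the level ran from 27.0 through 33.8 to 41.9. In P301S, 5 of 6 hypoxia libraries lay above every normoxia library, and the exception lay among them. How many of all genes did so was not counted. In WT the groups lay across each other.

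The log2 fold change of Cspg4 for hypoxia in P301S was 0.35 ± 0.105 (SE; 95% interval 0.14 to 0.57, adjusted p = 0.131, edgeR), a value that did not pass. DESeq2 gave the same 0.35 with an adjusted p of 0.0481, which passes, and edgeR with each library's trend on gene length and GC content removed gave 0.40 with an adjusted p of 0.0366. In WT the value was 0.06 ± 0.1, and the test of the difference between genotypes gave 0.30 ± 0.145 with an adjusted p of 0.534. Leaving out 1 library at a time gave 0.29 to 0.41 and adjusted p-values of 0.0794 to 0.269 for hypoxia in P301S.

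NG2 is also made by oligodendrocyte precursor cells, so markers of these cells are given beside Cspg4. Of 10 markers, 8 were tested and the other 2, Gpr17 and C1ql1, had no counts in any library. For hypoxia in P301S 0 of 8 passed, with 5 of 8 above 0 and a median log2 fold change of 0.05. Their summed level was 296 to 338 CPM in P301S normoxia and 284 to 358 in P301S hypoxia, with medians of 307 and 312. The sum includes Olig2, a gene of the whole oligodendrocyte lineage, and so is not a measure of precursors alone. Pdgfra, the defining receptor of precursors, had a log2 fold change of 0.14 ± 0.0658 (SE) for hypoxia in P301S, Olig2 0.44 ± 0.110 (adjusted p = 0.0766, edgeR) and Sox10 -0.28 ± 0.110. In P301S against WT in hypoxia 1 of the 8 markers passed, where 1.87% of all genes did. This was Olig2, a transcription factor of the oligodendrocyte lineage, higher in P301S by 0.40 ± 0.105 (adjusted p = 0.0498, edgeR). The part of precursor cells in the Cspg4 values was not tested.

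Vtn (ENSMUSG00000017344, chromosome 11, 78499091 to 78502324) measured 35.5 CPM at the lowest, 44.2 at the median and 51.2 at the highest in WT normoxia. In WT hypoxia the level ran from 36.4 through 51.8 to 70.3 CPM, and 3 of 6 libraries lay above every WT normoxia library. In P301S normoxia the libraries had 37.4, 43.0, 38.5, 48.9 and 29.3 CPM, and P301S hypoxia ran from 34.9 through 39.6 to 47.9. In hypoxia, 6 of 6 P301S libraries lay below the WT median, although the groups overlapped. The log2 fold change of P301S against WT in hypoxia was -0.40 ± 0.146 (SE; 95% interval -0.71 to -0.10, adjusted p = 0.144, edgeR), and in normoxia it was -0.16 ± 0.154.

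Vitronectin binds integrins that contain the alpha v chain. Of 6 receptors and partners listed, 5 were tested and 0 passed in each comparison. For hypoxia averaged over genotypes, Itgb3 had a log2 fold change of -0.25 ± 0.0815 (SE; adjusted p = 0.132, edgeR), Itgb5 -0.10 ± 0.0663 and Itgav 0.10 ± 0.0665.

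Rgs5 (ENSMUSG00000026678, chromosome 1, 169655501 to 169695813) had the highest counts of the genes and varied widely within groups. It measured 59.4 CPM at the lowest, 68.5 at the median and 98.8 at the highest in WT normoxia, and 52.9, 73.0 and 114 in WT hypoxia. In P301S normoxia the libraries had 58.0, 53.0, 61.0, 58.3 and 77.3 CPM, and P301S hypoxia ran from 49.9 through 69.6 to 88.8. The hypoxia libraries reached both below and above the normoxia libraries in each genotype. The log2 fold change for hypoxia averaged over genotypes was 0.13 ± 0.128 (SE; 95% interval -0.14 to 0.40).

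RGS4, RGS5 and RGS16 are proteins whose stability depends on oxygen through the enzyme ADO, a control on the protein that RNA levels do not report. Of the 5 genes listed with this system (Ado, Rgs2, Rgs3, Rgs4 and Rgs16), 0 passed in any comparison. For hypoxia averaged over genotypes, Rgs16 had a log2 fold change of 0.20 ± 0.134 (SE), Rgs4 0.08 ± 0.0665 and Rgs3 -0.07 ± 0.0710.

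Abcc9 encodes SUR2, the regulatory subunit of the potassium channel that opens when ATP falls and relaxes mural cells. It measured 6.15 CPM at the lowest, 6.93 at the median and 7.62 at the highest in WT normoxia, and 5.50, 6.97 and 9.20 in WT hypoxia. In P301S normoxia the libraries had 7.71, 7.56, 8.45, 7.52 and 7.25 CPM, and P301S hypoxia ran from 6.38 through 8.57 to 9.61. The groups overlapped in each comparison, and the log2 fold change for hypoxia averaged over genotypes was 0.10 ± 0.0790 (SE). Kcnj8, the pore subunit that pairs with SUR2, had -0.02 ± 0.127, and 0 of the 3 other channel genes passed in any comparison. Abcc8 and Kcnj11, the subunits found mainly in neurons and endocrine cells, had -0.04 ± 0.0688 and 0.03 ± 0.0859.

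Among the contractile genes, Acta2 (ENSMUSG00000035783, chromosome 19, 34241090 to 34255336), smooth muscle actin, had the largest fitted difference of the 8 genes for hypoxia in WT and the largest relative spread. It measured 4.88 CPM at the lowest, 5.73 at the median and 12.0 at the highest in WT normoxia, and 4.81, 8.95 and 13.0 in WT hypoxia. In P301S normoxia the libraries had 5.25, 5.80, 6.95, 9.20 and 4.88 CPM, and P301S hypoxia ran from 5.12 through 6.42 to 10.9. In WT, 5 of 6 hypoxia libraries lay above the normoxia median and 1 lay below every normoxia library.

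The log2 fold change of Acta2 for hypoxia in WT was 0.44 ± 0.241 (SE; 95% interval -0.06 to 0.94, adjusted p = 0.495, edgeR) and 0.08 ± 0.261 in P301S. Without WT normoxia replicate 3, the library at 12.0 CPM, the value in WT was 0.69 (adjusted p = 0.218, edgeR), and leaving out each library in turn gave 0.30 to 0.69 with adjusted p-values of 0.218 to 0.658. P301S against WT in hypoxia gave -0.40 ± 0.240 (adjusted p = 0.390). The biological coefficient of variation fitted for Acta2 was 0.286, higher than that of 89.7% of genes, against 0.111 for Pdgfrb. The trend over genes of like abundance stood at 0.208 for Acta2 and 0.122 for Pdgfrb, which has more counts.

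Myh11 (ENSMUSG00000018830, chromosome 16, 14194527 to 14291408), the smooth muscle myosin heavy chain, measured 5.70 CPM at the lowest, 8.26 at the median and 13.7 at the highest in WT normoxia. WT hypoxia ran from 6.16 through 8.76 to 12.4 CPM, the P301S normoxia libraries had 6.97, 8.85, 8.49, 12.3 and 8.63, and P301S hypoxia ran from 6.52 through 9.92 to 13.8. The 4 groups covered nearly the same range. The log2 fold change for hypoxia averaged over genotypes was 0.08 ± 0.157 (SE; 95% interval -0.25 to 0.40).

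Tagln was at 0.128 to 0.487 CPM in all libraries, with medians of 0.232 in WT normoxia, 0.246 in WT hypoxia, 0.344 in P301S normoxia and 0.328 in P301S hypoxia. With no filter on low counts its fitted log2 fold changes were -0.02 for hypoxia in each genotype and 0.22 for P301S against WT in each condition (adjusted p from 0.805 to 1, edgeR). At 3 to 12 counts a library a difference of this size was not detectable.

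**Figure D3:**
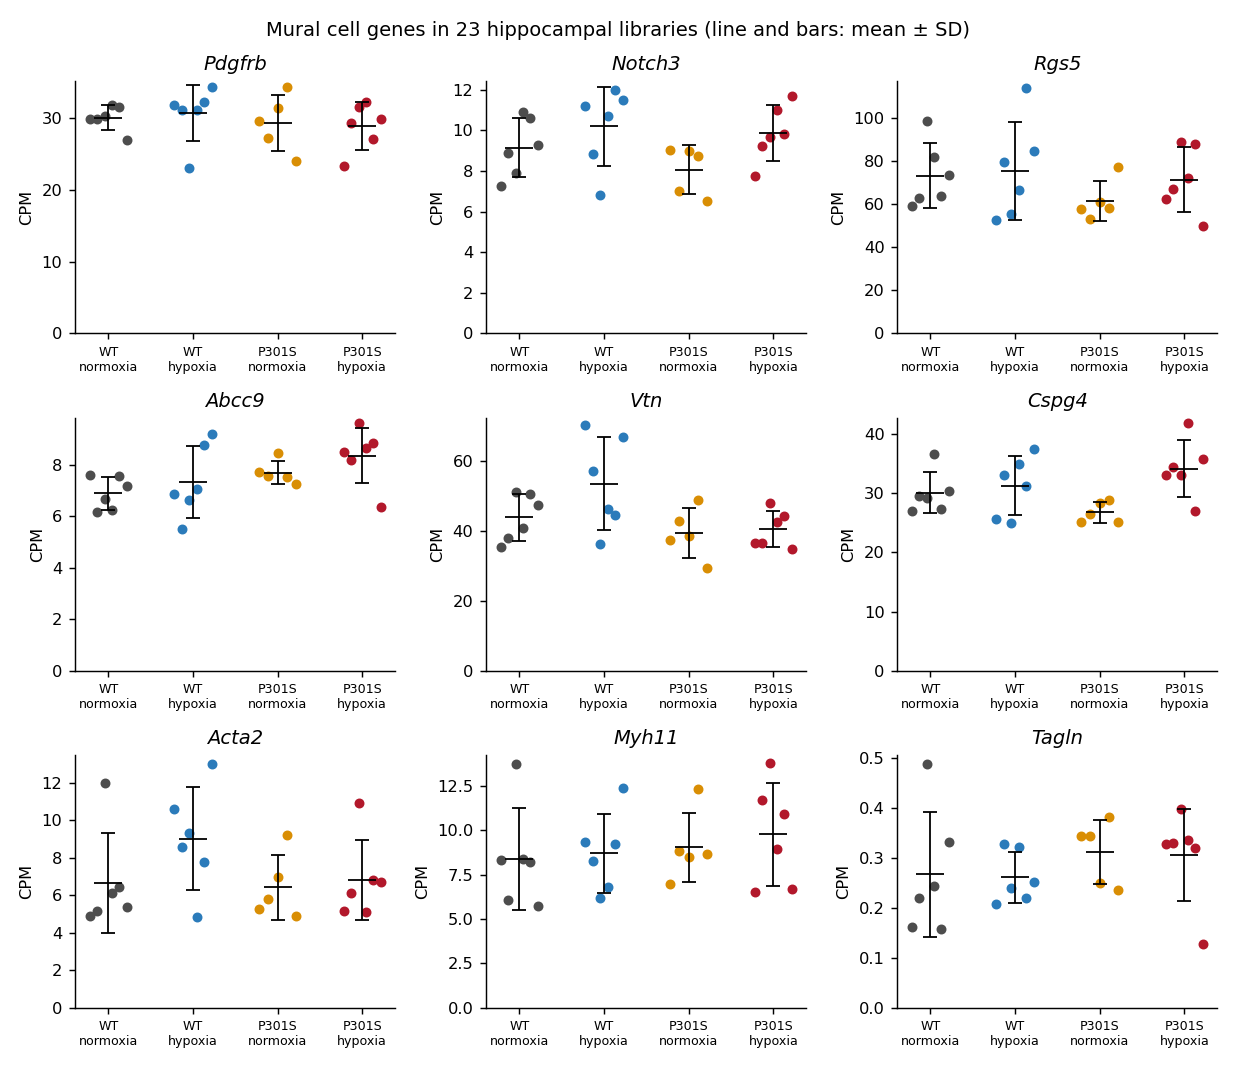
CPM (y axis, from 0) of the 9 mural cell genes in each library (points) of the 4 groups, with the group mean ± SD. Groups overlap for every gene, and the Tagln axis ends near 0.5 CPM. In P301S, 5 of 6 hypoxia libraries lie above all normoxia libraries for Cspg4 and for Notch3. Neither gene passed the test, and the share of all genes with such a pattern was not counted.

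Further contractile genes gave the same picture of no calls: of 15 listed, 13 were tested and 0 passed in each comparison, with a median log2 fold change for hypoxia of 0.11 in WT and 0.12 in P301S. For hypoxia averaged over genotypes, Cnn1, the contractile regulator calponin, had 0.47 ± 0.228 (SE), Tpm2, a tropomyosin, 0.20 ± 0.0924 and Myocd, the coactivator myocardin, -0.50 ± 0.194 (adjusted p = 0.202, edgeR). Myocd lay at 0.458 to 0.496 CPM in P301S normoxia and at 0.0827 to 0.393 CPM in the other groups. It reached the minimum count of the filter only through P301S normoxia, where it was high. Its lower value in hypoxia is therefore no separate result. Of 13 serum response factor, myocardin and TGF-beta genes, 12 were tested. The untested gene was Srf, which encodes serum response factor itself. It had no counts in any library, so these data say nothing of its change. In P301S against WT in normoxia 1 of the 12 passed, where 6.35% of all genes did. This was Mrtfb, a myocardin-related coactivator, higher in P301S by 0.49 ± 0.124 (adjusted p = 0.0219, edgeR). None of the other tested genes of this list passed in any comparison. Acvrl1, an endothelial TGF-beta family receptor, had 0.32 ± 0.0934 for hypoxia averaged over genotypes (adjusted p = 0.0836).

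Of 15 further pericyte genes, 14 were tested and 0 passed in each comparison. Their median log2 fold change for hypoxia was 0.21 in WT, with 11 of 14 above 0, and -0.15 in P301S, with 5 of 14 above 0. For the average, Mcam, an adhesion molecule of mural cells, had -0.28 ± 0.0966 (SE; adjusted p = 0.157, edgeR), Pth1r, a hormone receptor, -0.14 ± 0.0950 and Art3 0.19 ± 0.128. Of 12 basement membrane genes, 12 were tested and 0 passed. Their median for the average was -0.09, with 5 of 12 above 0, and Nid2, a nidogen, was the lowest at -0.58 ± 0.234.

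Endothelial cells are the partners of pericytes, and of 17 endothelial genes 0 passed for hypoxia in WT, 1 in P301S, where 0.41% of all genes did, and 1 averaged over genotypes, where 1.33% did. Slc2a1, the glucose transporter of the blood-brain barrier and a target of hypoxia-inducible factor, rose by 0.36 ± 0.0628 (SE) on the log2 scale averaged over genotypes (adjusted p = 0.0059, edgeR) and by 0.43 ± 0.0912 in P301S (adjusted p = 0.0436). Abcb1a, an efflux pump of the same barrier, had 0.25 ± 0.0681 (adjusted p = 0.0680) and Vwf, a clotting factor of endothelium, 0.47 ± 0.164 (adjusted p = 0.158). Averaged over genotypes, 12 of the 17 endothelial genes were above 0, with a median of 0.12 and values from -0.25 to 0.47. Of 12 hypoxia-inducible factor targets, 10 were tested and no other passed. For the average over genotypes, 6 of these 10 were above 0, with a median of 0.01 and values from -0.42 to 0.36. Vegfa had -0.12 ± 0.0423 and Car12 -0.42 ± 0.17 averaged over genotypes. Whether the mural genes differed from Slc2a1 in their hypoxia difference was not tested.

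Within groups the mural genes varied together in part. Correlations were taken over 23 libraries on log2 CPM with each group's mean removed, so they describe differences between libraries of one group, with two-sided p from 100000 permutations within groups and Benjamini-Hochberg adjustment over 28 pairs. Of the 28 pairs 27 had an r of 0 or above, with a median of 0.25, and 8 passed an adjusted p of 0.05 for r and 5 of them for rho as well. The pairs share libraries and each library's scaling, and they share tissue makeup.

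The strongest pair was Pdgfrb with Notch3 (r = 0.77, permutation p = 0.00027, adjusted 0.00476; rho = 0.72, permutation p = 0.0003; r = 0.59 without the 2 libraries farthest from the median of Pdgfrb). Acta2 with Myh11 followed (r = 0.73, permutation p = 0.00034, adjusted 0.00476; rho = 0.59, permutation p = 0.00611; r = 0.66 without 2). Vtn varied with Acta2 (r = 0.61, permutation p = 0.00463, adjusted 0.0324; rho = 0.64, permutation p = 0.00248; r = 0.71 without 2). Vtn varied likewise with Myh11 (r = 0.58, permutation p = 0.00427, adjusted 0.0324; rho = 0.58, permutation p = 0.00543; r = 0.55 without 2). Pdgfrb varied with Cspg4 (r = 0.55, permutation p = 0.0108, adjusted 0.0431; rho = 0.60, permutation p = 0.00458; r = 0.48 without 2).

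The 3 pairs that passed for r alone were Pdgfrb with Vtn (r = 0.58), Rgs5 with Myh11 (r = 0.55) and Pdgfrb with Myh11 (r = 0.53), each with an adjusted permutation p of 0.0978 for rho. Cspg4 had an r of -0.07 with Acta2 and 0.10 with Myh11, and Notch3 one of 0.07 with Acta2. Rgs5 and Pdgfrb, both pericyte genes, had an r of 0.18 (permutation p = 0.475), which fell to -0.06 without the 2 farthest libraries. Without the 6 libraries lowest in choroid plexus markers no pair passed, although the r of Acta2 with Myh11 was 0.76, of Pdgfrb with Notch3 0.71 and of Vtn with Acta2 0.65 there. This left fewer libraries, with 3 of the 6 of WT hypoxia left out, and a given r is then less likely to pass.

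**Figure D4:**
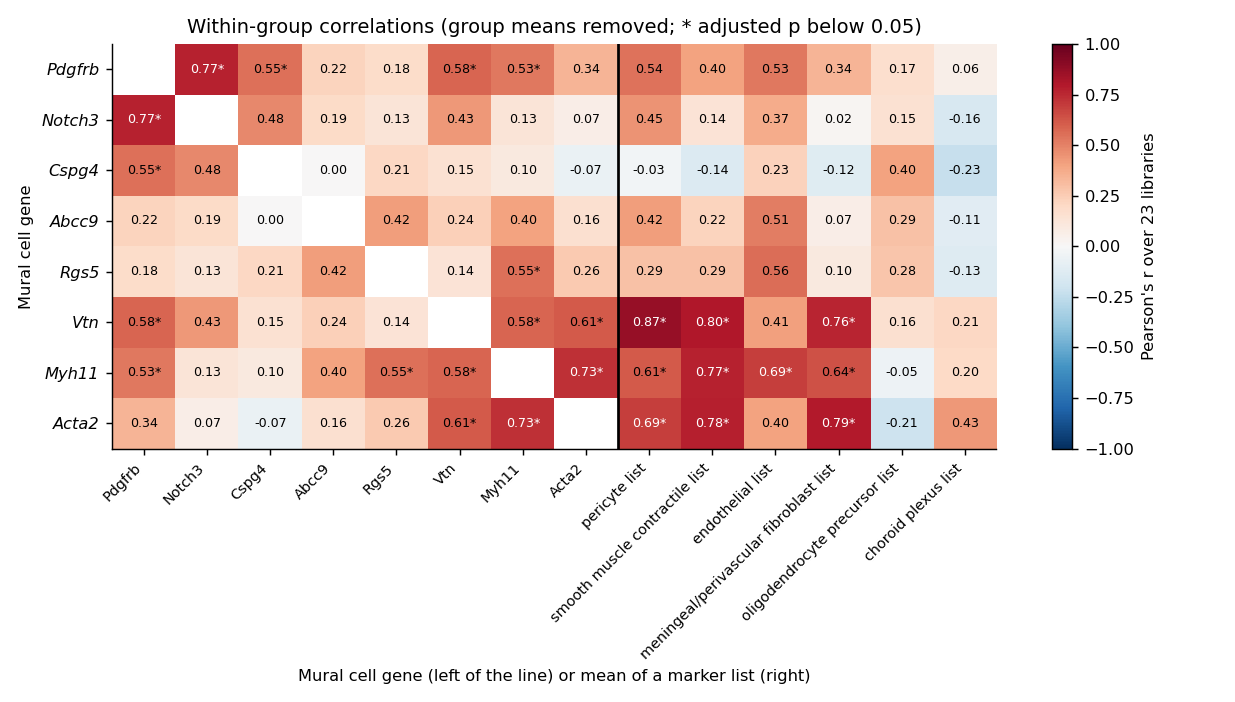
Pearson's r over 23 libraries, group means removed, of each mural cell gene with the others (left of the line) and with the mean of 6 marker lists (right). Asterisks mark an adjusted permutation p below 0.05. Pdgfrb and Notch3 (0.77) and Acta2 and Myh11 (0.73) are the strongest pairs, and Vtn, Myh11 and Acta2 carry all 10 asterisks against the lists of pericyte, smooth muscle, endothelial and fibroblast genes.

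The same measure was taken against the mean of marker lists, and the 10 relations that passed for r were all of Vtn, Acta2 or Myh11; differences between the correlations of 2 genes were not tested. This comparison, of 8 genes with 6 lists, was chosen after the data were seen, and p-values were adjusted over its 48 relations. Against meningeal and perivascular fibroblast genes, which include collagens, r was 0.79 for Acta2 (permutation p = 4e-05, adjusted 0.00096; rho = 0.75, permutation p = 0.00023; r = 0.71 without the 2 farthest libraries). It was 0.76 for Vtn (permutation p = 0.00044, adjusted 0.00352; rho = 0.80, permutation p = 0.0001; r = 0.75 without 2) and 0.64 for Myh11 (permutation p = 0.00169, adjusted 0.00901; rho = 0.59, permutation p = 0.00502; r = 0.59 without 2). The other 5 genes had r from -0.12 for Cspg4 to 0.34 for Pdgfrb and did not pass.

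Against the 14 further pericyte genes, Vtn had an r of 0.87, Acta2 0.69 and Myh11 0.61, and against the 13 further smooth muscle genes 0.80, 0.78 and 0.77, all with an adjusted permutation p below the threshold for both r and rho. Cspg4 had -0.03 and -0.14 against these lists. Against endothelial genes Myh11 had an r of 0.69 (permutation p = 0.00112, adjusted 0.00672; rho = 0.64, permutation p = 0.00326; r = 0.61 without 2), and Rgs5 one of 0.56 (adjusted permutation p = 0.0563; rho = 0.57). No gene passed against oligodendrocyte precursor genes, where Cspg4 was highest at 0.40 (adjusted permutation p = 0.223), nor for r against choroid plexus genes, where Acta2 was highest at 0.43. For the last, rho was 0.56 with an adjusted permutation p of 0.0445.

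**Figure D5:**
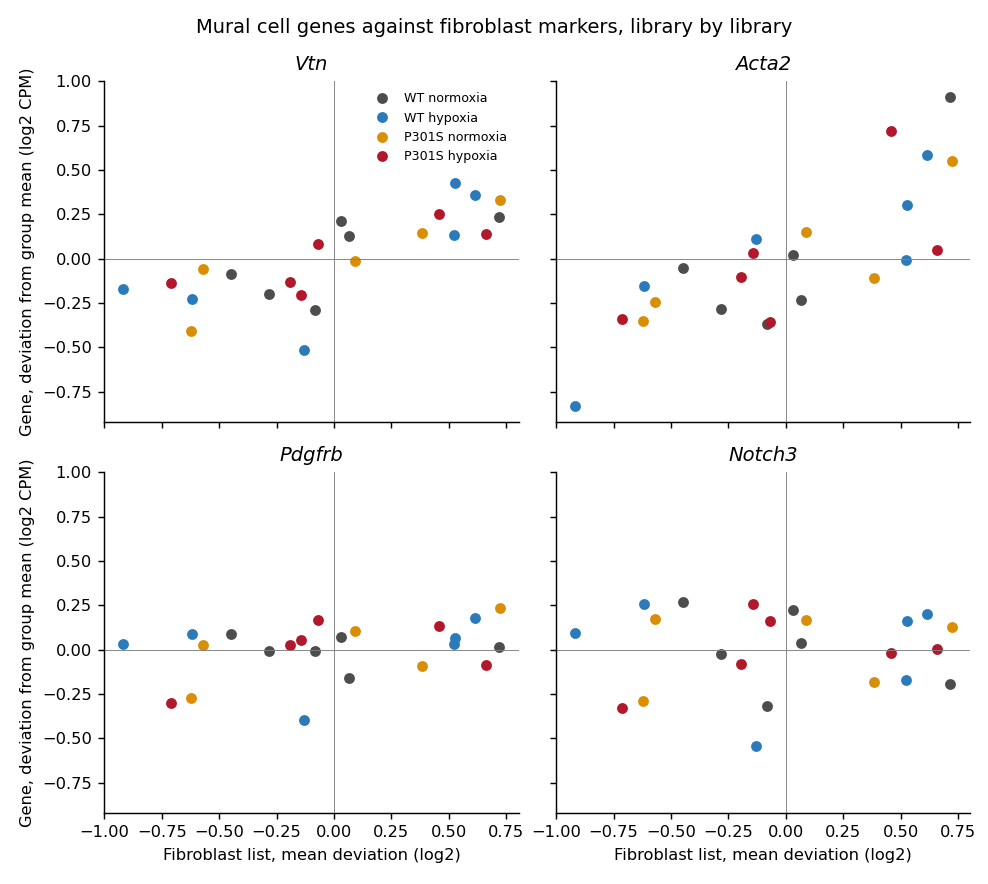
Deviation of Vtn, Acta2, Pdgfrb and Notch3 from the group mean (log2 CPM, y axis) against the mean deviation of 13 fibroblast markers (log2, x axis), with 1 point per library coloured by group. Vtn (r = 0.76) and Acta2 (r = 0.79) rise from left to right, and Pdgfrb has an r of 0.34 and Notch3 one of 0.02; the difference was not tested.

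The fibroblast markers by group stand here beside Vtn and Acta2. Of 13 tested, 0 passed in 5 of the 6 comparisons and 1 in P301S against WT in normoxia, where 6.35% of all genes did. Their summed level had a median of 505 CPM in WT normoxia (376 to 665), 424 in WT hypoxia (284 to 624), 503 in P301S normoxia (287 to 793) and 383 in P301S hypoxia (288 to 519). Igf2 had the highest median of these genes in each group, at 243, 133, 131 and 95.3 CPM in the same order. The sums therefore depend strongly on Igf2. The median log2 fold change of the 13 markers for hypoxia was 0.23 in WT, with 9 of 13 above 0, and -0.36 in P301S, with 1 of 13 above 0. In WT the median of the sums and the median log2 fold change thus differ in sign. Fn1, fibronectin, was the gene that passed, higher by 0.36 ± 0.0843 (SE) in P301S against WT in normoxia (adjusted p = 0.0149, edgeR). For the average of hypoxia, 6 of the 13 markers were above 0, with a median of -0.10 and values from -0.71 to 0.60. Lum had -0.45 ± 0.180 and Dcn -0.32 ± 0.191, both small proteoglycans of fibroblasts. Pdgfra, also on this list, had 0.15 ± 0.0456. The part of fibroblast RNA in the Vtn and Acta2 values was not tested.

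Across 13195 genes with a mean of at least 1 CPM, those most like each member over the 23 libraries were listed by r. For Vtn they were Col1a1 (r = 0.90, rho = 0.89), Nupr1 (r = 0.86) and Bgn (r = 0.83); Col1a1 encodes a chain of type I collagen and is itself one of the fibroblast markers. For Acta2 they were Mgp, Lama1 and Col3a1, each at 0.78, and for Myh11 Itih5 (0.81), Itga1 (0.78) and Lama1 (0.76). Lama1, Itga1 and Col3a1 encode a laminin chain, an integrin and a collagen.

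For the other members, Smtn alone of the nearest genes is in the marker lists used here. Pdgfrb was nearest to Cep164 (0.83), Tmem110 (0.81) and Gtf2ird2 (0.79), Notch3 to Alox5 (0.84), Ift122 (0.83) and Crtc2 (0.81), and Cspg4 to Psmf1 (0.83), Dennd1a (0.82) and Cgref1 (0.81). Rgs5 was nearest to Klf4 (0.78), a transcription factor also made by smooth muscle, then Il18 and Scg3 (both 0.73). Abcc9 was nearest to Srrm1 and Smtn (both 0.72), the second encoding smoothelin of contractile muscle, and to Syk (0.69). These values are the highest of many and carry no test.

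The sequence before the start site was read for 6 of the 9 genes from RefSeq on GRCm38.p6. The 4 shown are the stretches of 150 bases before Acta2 and Vtn, which varied with the contractile and fibroblast genes, and before Notch3 and Cspg4, which varied with Pdgfrb. Each is 5′ to 3′ on the gene's strand and ends before both the RefSeq and the Ensembl start. Capitals mark GGGCGG on either strand (the GC box bound by SP1), TATAAA on either strand, and CArG boxes, the site of serum response factor, with 1 inner base that is not A or T. In Vtn the 2 TATAAA matches, 1 on each strand, overlap.
Acta2 (chr19:34255374-34255523, minus strand): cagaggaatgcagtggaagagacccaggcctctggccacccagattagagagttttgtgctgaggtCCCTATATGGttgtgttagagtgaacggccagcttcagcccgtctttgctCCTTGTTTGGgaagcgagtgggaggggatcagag
Vtn (chr11:78498941-78499090, plus strand): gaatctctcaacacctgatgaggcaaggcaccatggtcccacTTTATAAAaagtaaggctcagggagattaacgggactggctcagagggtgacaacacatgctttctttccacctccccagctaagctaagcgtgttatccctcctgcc
Notch3 (chr17:32166891-32167040, minus strand): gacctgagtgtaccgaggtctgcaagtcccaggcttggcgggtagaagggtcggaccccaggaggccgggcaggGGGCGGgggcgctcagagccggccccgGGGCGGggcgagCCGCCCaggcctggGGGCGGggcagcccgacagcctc
Cspg4 (chr9:56864883-56865032, plus strand): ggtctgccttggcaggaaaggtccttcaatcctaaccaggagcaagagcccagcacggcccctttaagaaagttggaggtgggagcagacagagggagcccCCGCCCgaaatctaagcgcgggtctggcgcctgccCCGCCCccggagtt

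Within 250 bases before the RefSeq start, the exact CArG box was in 0 of the 6 genes and in 1.47% of 32851 windows of that length. The form with 1 inner base off, searched after the exact form had been found absent, was in Acta2 alone, at -84 to -75 and -34 to -25 from the start, and in 7.24% of windows. GGGCGG was in 3 of the 6: 4 times in Notch3, 2 times in Cspg4 and 1 time in Abcc9, against 32.7% of windows. ACGTG, the core bound by hypoxia-inducible factor, was in Notch3 alone, at -186 to -182, against 16.6% of windows, and TATAAA in Vtn alone, against 12.4%. GTGGGAA, a core bound by the Notch factor RBPJ, was in 0 of the 6, against 5.42%. These are matches of letters in short windows.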

How the data were processed

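Poly(A) RNA of 23 hippocampal libraries was sequenced with a stranded kit, per the labels' protocols. The deposited values are raw counts per gene body, made by the authors with featureCounts 1.6.2 on Ensembl 90 genes, without strand and after duplicate removal, per the file headers; HISAT2, mm10 and DESeq2 1.6.3 are named in the submitters' processing notes. Here counts were filtered (filterByExpr, minimum count 10) and fitted in edgeR 4.0.16 (R 4.3.3) with TMM factors, 4 group means and the newer quasi-likelihood method, two-sided, with Benjamini-Hochberg adjustment and a threshold of 0.05. This method replaced the package's default after results of the default had been seen. CPM are on TMM-scaled library sizes of 19.1 M to 25.8 M counts before scaling, which set the precision. DESeq2 1.42.0 and other settings were alternatives, and the fit was tested on simulated data. Libraries of a group differed beyond counting noise (chi-square per degree of freedom of at least 5.13), and replicates were numbered in accession order. Members and gene lists were chosen with earlier results of these data known. From each list up to 3 genes with the lowest p for hypoxia averaged over genotypes are named, plus any that passed; Pdgfb was added after its values were seen. Correlations used 28 of 36 pairs, since Tagln was filtered out.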

Additional observations from a re-analysis of the deposited data

Results flagged for a closer look

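Of 32 combinations of a tested gene and a group, 5 held a library far from the rest of its group by Dixon's criterion, which chance alone flags in about 1 in 20 groups. Pdgfrb was low in WT hypoxia replicate 3, at 23.1 CPM against 31.2 for the nearest library. Cspg4 was high in WT normoxia replicate 4, at 36.6 CPM against 30.4. Acta2 was high in WT normoxia replicate 3, at 12.0 CPM against 6.41, and in P301S hypoxia replicate 3, at 10.9 CPM against 6.81. Myh11 was high in WT normoxia replicate 3, at 13.7 CPM against 8.40 for the nearest, the same library as for Acta2. Without WT normoxia replicate 3 the log2 fold change of Myh11 for hypoxia in WT was 0.24 in place of 0.04 (adjusted p at least 0.7 over all libraries left out in turn, edgeR).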

How the results depend on the processing

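Over the alternatives other than leaving out 1 library, 359 of 368 fitted log2 fold changes kept their sign and side of the threshold, and over those leaving out 1 library 708 of 736 did. With DESeq2, 1 of the 8 genes passed for hypoxia in P301S (Cspg4), and with the length and GC trend removed 1 passed for hypoxia in P301S and 1 averaged over genotypes (Cspg4 each time, 0.40 and 0.25, adjusted p = 0.0366 and 0.0370, edgeR). These settings also called more genes in all. For hypoxia in P301S, DESeq2 called 343 of 13635 genes and edgeR with the trend removed 169 of 17788, beside 73 of 17788 as reported. Averaged over genotypes, 417 of 17788 passed with the trend removed, beside 236 as reported. No other alternative called any of the 8 genes. Pdgfrb turned to 0.04 for hypoxia in P301S with the trend removed. Without the 6 libraries lowest in choroid plexus score, Pdgfrb turned to -0.01 for hypoxia in WT, 0.01 in P301S and 0.02 for the interaction. Rgs5 turned to 0.01 and Notch3 to 0.16 for P301S against WT in hypoxia there. Over these fewer libraries 0 pairs of genes passed as correlated (8 with all libraries). There r turned to -0.03 for Rgs5 with Notch3 and 0.31 for Cspg4 with Acta2. The cause was not tested.

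Leaving out 1 library at a time turned the sign of values near 0. For hypoxia in WT the ranges were -0.01 to 0.10 for Pdgfrb, -0.11 to 0.15 for Rgs5 and -0.09 to 0.24 for Myh11. For hypoxia in P301S they were -0.09 to 0.04 for Pdgfrb, -0.05 to 0.13 for Vtn, -0.11 to 0.25 for Acta2 and -0.02 to 0.25 for Myh11. For P301S against WT in normoxia they were -0.11 to 0.03 for Pdgfrb, -0.23 to 0.20 for Acta2 and -0.04 to 0.30 for Myh11, and in hypoxia -0.16 to 0.07 for Rgs5 and -0.14 to 0.01 for Notch3. For the interaction they were -0.12 to 0.02 for Pdgfrb, -0.04 to 0.11 for Abcc9 and -0.13 to 0.20 for Myh11.

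Counts over all genes depended on the setting: 0 to 153 for hypoxia in WT (13 as reported), 38 to 343 in P301S (73), 368 to 1617 for P301S against WT in normoxia (1130) and 16 to 847 in hypoxia (333), 0 to 49 for the interaction (7) and 60 to 644 for hypoxia averaged (236), with the highest from DESeq2 each time. Without 1 library they were 2 to 29, 7 to 154, 365 to 2069, 91 to 618, 0 to 13 and 85 to 371 in the same order. The older quasi-likelihood method was added after the data were seen and called none of the 8 genes. No paired analysis was possible because the labels give the groups no shared replicate numbers.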
